A study of Mus musculus with 2 samples.

Results

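The 10 genes described here encode 3 cytokines, Il33, Il18 and Il7, and 7 receptor chains, Il1rl1, Il1rap, Il18r1, Il17rb, Il7r, Il2ra and Il9r. They were chosen by name as the alarmins and cytokine receptors through which group 2 innate lymphoid cells (ILC2s) receive signals, and they are 10 of the 32285 gene features of the data. The data came from lungs of wild-type mouse fetuses on gestation day 18, and RNA and accessible chromatin were read from the same nuclei. The PBS library held 9 pooled fetuses of mothers that received alum without antigen before mating and intranasal PBS during pregnancy. The OVA library held 8 pooled fetuses of mothers sensitized with 100 µg of ovalbumin (OVA) in alum and given intranasal doses of 500 µg of OVA repeatedly between gestation days 4 and 17, which is the study's model of maternal asthma. Nuclei came from a mixture of sorted ILC2s (CD45+, Lin-, ST2+), other CD45+ cells and EpCAM+ epithelium. ST2 is the protein of Il1rl1, so the level of Il1rl1 in ILC2s was in part set by the sort. Each group had 1 library. Its fetuses came from a single dam, by the study's methods, so treatment, dam and library cannot be told apart.

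ILC2s are tissue-resident lymphocytes that lack antigen receptors and respond to cytokines made by their neighbours. IL-33, held in the nucleus of barrier cells and released on damage, binds ST2, which signals together with the accessory protein of Il1rap. IL-18, which inflammasome proteases cut to its active form, binds the chain of Il18r1 and signals with that of Il18rap. IL-25 binds the chain of Il17rb. IL-7 sustains lymphoid cells through Il7r and the common gamma chain, Il2ra is the chain that gives the IL-2 receptor its high affinity, and Il9r binds IL-9, a cytokine that ILC2s themselves can make.

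The PBS library held 8019 barcodes with 11473351 unique molecular identifiers (UMIs) in genes, and the OVA library 5960 barcodes with 13774959. After filtering and removal of doublets, 4279 PBS and 4996 OVA nuclei remained, with medians of 1115 and 1821 UMIs. Mitochondrial genes took 45.2% and 29.2% of all UMIs. The libraries shared 54 barcodes. Nuclei were assigned to a type by counting marker genes, none of which was among the 10 genes, and the 7 types that reached 50 nuclei in both libraries were compared. ILC2-gated nuclei numbered 338 and 511, macrophages 324 and 569, alveolar type 2 (AT2) cells 447 and 300, alveolar type 1 (AT1) cells 209 and 286, fibroblasts 998 and 1284, myofibroblasts or smooth muscle 82 and 79, and pericytes 77 and 114. The last 3 types lie outside the named sort gates. A further 39.5% of PBS and 32.9% of OVA nuclei were not assigned to any type.

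Of the 18 ILC2 markers 14 were found in at least 5% of ILC2-gated nuclei in each library. The gate picked nuclei by these same markers, so this describes the gate and does not check its label. Genes that are not ILC2 markers were also read. Ptprc, the CD45 gene, was at 469 and 609 counts per 1000000 gene UMIs (CPM) in ILC2-gated nuclei, and Epcam was at 17.7 and 21.2 CPM. Epcam was at 101 and 118 CPM in AT2-gated nuclei. It was at 3.06 and 0 CPM in macrophages, 4.41 and 3.77 in fibroblasts and 18.4 and 0 in pericytes. The surfactant gene Sftpc was at 366 and 220 CPM in ILC2-gated nuclei against 16950 and 17800 CPM in AT2-gated nuclei, which gives a measure of RNA from other cells, and its part in the values below was not tested. All intervals below are 95% intervals for counting error alone. The first value of each pair is that of the PBS library unless another order is stated.

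Il33 (ENSMUSG00000024810, chromosome 19, 29925114 to 29960718, plus strand) was found mainly in AT2-gated nuclei among the gated types. It had 25 UMIs there in the PBS library, or 26.9 CPM (17.4 to 39.8, Poisson), and 37 UMIs in the OVA library, or 40.3 CPM (28.4 to 55.6). AT2-gated nuclei gave 80.6% and 90.2% of all Il33 UMIs in gated nuclei. In each of the other 6 types Il33 had at most 3 UMIs. No Il33 UMI was found in ILC2-gated nuclei, where 3 counts would be 8.85 and 3.98 CPM. AT2-gated nuclei exceeded all other gated nuclei by 3.86 on the log2 scale (2.54 to 5.43) in the PBS library and by 6.11 (4.64 to 8.06) in the OVA library. The nearest type in the PBS library was the pericyte with 1 UMI, from which AT2 did not differ beyond counting error (1.55, -1.07 to 6.91). After thinning each nucleus to 500 UMIs of nuclear genes, 2.80% of PBS and 2.17% of OVA AT2-gated nuclei had an Il33 UMI, against 0 of 281 and 0 of 564 macrophages. That allows a share of nuclei with a UMI of up to 1.07% and 0.532%. Without thinning the AT2 shares were 5.15% and 8.33%. Median depths were 1429 and 2050 UMIs in AT2-gated nuclei and 1823 and 2439 UMIs in macrophages.

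Chromatin around Il33 was also most open in AT2-gated nuclei. Accessibility is given as transposition counts per 1000000 counts in regions where peaks of both libraries overlapped. Within 100 kb of the start it was 79.9 and 91.7 in AT2-gated nuclei, ahead of AT1 in the PBS library (51.9) and of macrophages in the OVA library (52.1). The region over the start itself was weak, at 2.26 and 1.69 in AT2-gated nuclei and 2.21 and 3.17 in all other gated nuclei. The regions that set AT2-gated nuclei apart most lay upstream. An intergenic region 17023 bp before the start (chr19:29907610-29908573) had 20.9 and 23.9 in AT2-gated nuclei and 0.939 and 0.6 in the others, and one 45748 bp before it (chr19:29878877-29879856) had 12.9 and 10.8 against 0.536 and 0.0857. In the PBS library AT1-gated nuclei had 5.46 and 7.28 at these regions, the next highest of the 7 types.

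The promoter at the first Il33 start is printed because RNA was found in AT2-gated nuclei while the region over it was barely open there. It is chr19:29924863-29925162 on the plus strand. All promoters printed here are RefSeq sequences on GRCm38.p6, from 250 bases before to 50 bases after the start, 5′ to 3′ on the gene's strand, and capitals mark matches to 1 of 6 motifs searched on both strands. Here the capitals are GGAATG (TEAD), found in 14.6% of the 32544 promoters of the table.
Il33 promoter: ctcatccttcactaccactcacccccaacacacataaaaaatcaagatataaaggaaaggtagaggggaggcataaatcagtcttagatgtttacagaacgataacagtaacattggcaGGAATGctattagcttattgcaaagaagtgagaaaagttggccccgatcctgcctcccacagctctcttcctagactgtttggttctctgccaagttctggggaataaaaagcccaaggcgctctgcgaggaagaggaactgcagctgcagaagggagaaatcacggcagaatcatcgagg

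Il18 (ENSMUSG00000039217, chromosome 9, 50554827 to 50581840, plus strand) was found mainly in macrophages among the gated types. Macrophages had 32 UMIs in the PBS library, or 49.0 CPM (33.5 to 69.1), and 140 UMIs in the OVA library, or 90.7 CPM (76.3 to 107). Fibroblasts had 8 and 5 UMIs, AT2-gated nuclei 2 and 2, and ILC2-gated nuclei 0 and 1. Macrophages exceeded the next type by 3.06 (1.91 to 4.39, over fibroblasts) and 5.38 (3.499 to 8.44, over AT2) on the log2 scale. Monocytes, with 24 and 41 nuclei, were too few to rank, and their 2 and 5 UMIs gave 68.6 CPM (8.31 to 248) and 101.4 CPM (32.9 to 237), intervals that hold the macrophage values. Nuclei without a type held 66 and 144 further UMIs. The macrophage gate was narrow, since clusters in which macrophages led held 1256 and 1507 nuclei. The Il18 gene overlaps Bco2 and Tex12 on the other strand.

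Macrophages were also the type with the most open chromatin within 100 kb of Il18, at 583 and 572 counts per 1000000, ahead of ILC2-gated nuclei at 374 and 394. At the start (chr9:50554511-50555371) macrophages had 27.2 and 18.2 and all other gated nuclei 5.89 and 5.18. Regions far more open in macrophages lay 29770 bp before the start in an exon of Pts (13.1 and 13.2 against 0.595 and 0.342) and 63891 bp before it in an intron of Plet1os (21.8 and 17.5 against 1.07 and 1.12). The printed promoter belongs to the RefSeq start 50554700 and ends before the start given above (50554827). It overlaps part of the region at the Il18 start, which was open where Il18 RNA was found. It is chr9:50554450-50554749, plus strand, with a RUNX letter match in capitals (TGTGGT on the other strand, in 16.7% of promoters).
Il18 promoter: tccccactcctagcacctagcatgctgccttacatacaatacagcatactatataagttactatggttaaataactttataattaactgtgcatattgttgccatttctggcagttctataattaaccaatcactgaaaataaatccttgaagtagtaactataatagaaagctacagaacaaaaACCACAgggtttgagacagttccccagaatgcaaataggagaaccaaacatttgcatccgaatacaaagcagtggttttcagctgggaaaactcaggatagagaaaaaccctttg

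Il7 (ENSMUSG00000040329, minus strand of chromosome 3, 7569994 to 7613760) was at the limit of detection. It had 2 UMIs in all 4279 kept PBS nuclei and 9 in the 4996 OVA nuclei. AT2-gated nuclei held 2 and 3 of these UMIs, or 2.15 CPM (0.261 to 7.78) and 3.27 CPM (0.674 to 9.56), and macrophages held 0 and 2. At this depth no type could be named as the source of Il7 from RNA. Chromatin within 100 kb of Il7 was most open in AT2-gated nuclei, at 55.2 and 62.4 against 14.8 and 15.2 in all other gated nuclei, a log2 difference of 1.91 (1.64 to 2.17) and 2.04 (1.77 to 2.30). The region with the highest AT2 value lay 17698 bp before the start in an intron of the antisense gene Gm16685 (chr3:7630753-7632163). It had 22.8 and 27.0 in AT2-gated nuclei, 5.46 and 8.60 in AT1-gated nuclei and at most 0.528 in any other of the 7 types. The region nearest the start was open in all of the types but PBS pericytes, with 20.5 and 25.3 in AT2-gated nuclei and 10.7 and 10.2 in the others.

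**Figure D1:**
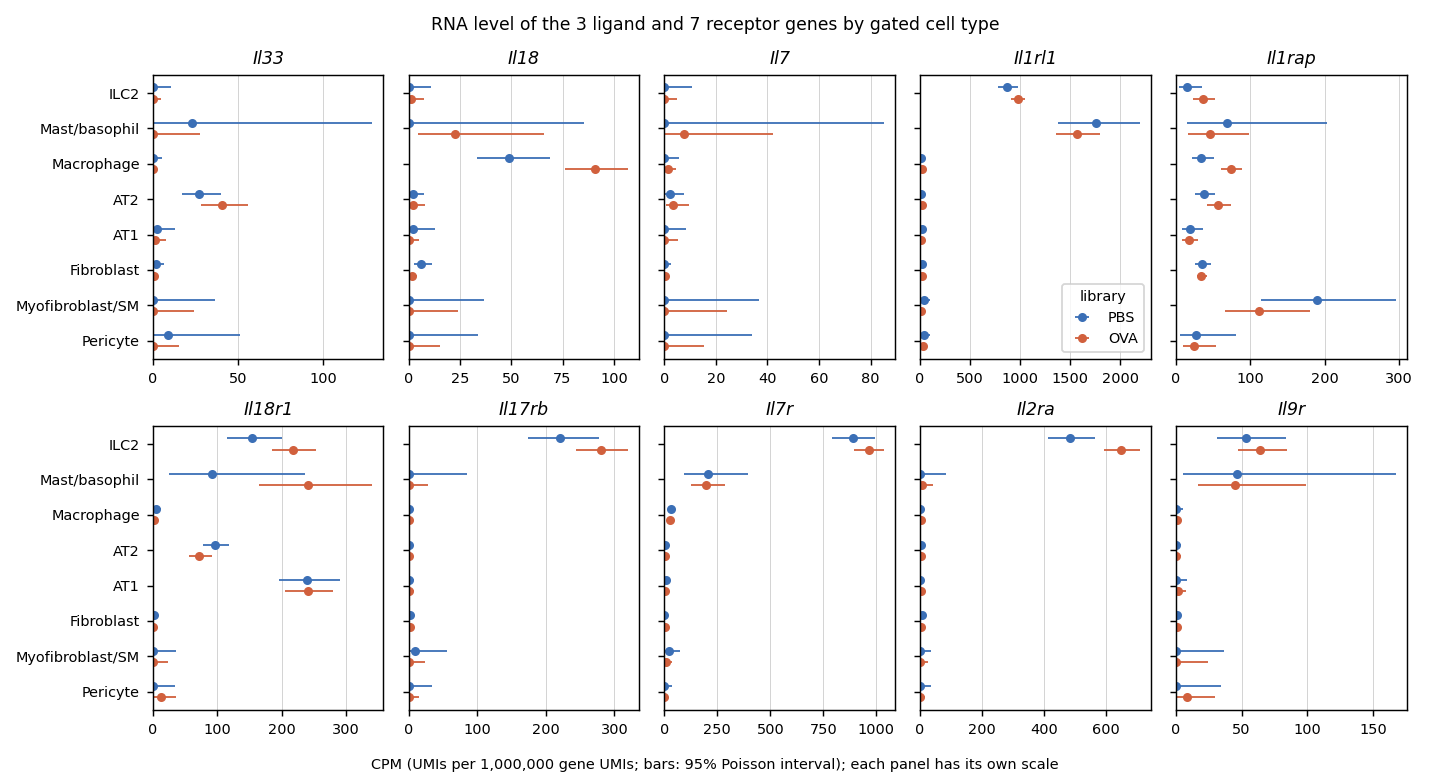
RNA level of each of the 10 genes (CPM on the x axis, its own scale in each panel) in 8 gated cell types of the PBS (blue) and OVA (orange) libraries, with 95% Poisson intervals as bars. Il33 stood out in AT2-gated nuclei (26.9 and 40.3 CPM) and Il18 in macrophages (49.0 and 90.7 CPM). Il17rb, Il7r, Il2ra and Il9r were highest in ILC2-gated nuclei, for Il9r not beyond counting error over mast cells or basophils. Il18r1 was shared by ILC2-gated and AT1-gated nuclei.

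Il1rl1 (ENSMUSG00000026069, chromosome 1, 40429570 to 40465415, plus strand), the ST2 gene, had 296 UMIs in ILC2-gated nuclei of the PBS library, or 874 CPM (777 to 979), and 735 UMIs in the OVA library, or 975 CPM (906 to 1048). Across the other 6 types it lay between 6.60 and 39.8 CPM. It was higher still in the nuclei gated as mast cells or basophils, cells that also carry ST2, with 1756 CPM (1384 to 2198) in 39 PBS nuclei and 1570 CPM (1364 to 1799) in 80 OVA nuclei. ILC2-gated nuclei were below these by 1.01 on the log2 scale in the PBS library (ILC2 over mast cell or basophil -1.01, -1.38 to -0.62) and by less in the OVA library (-0.69, -0.91 to -0.46). Those nuclei were too few to enter the ranking, in which ILC2 came first of 7 types. After thinning, 70.0% of 20 PBS and 69.4% of 62 OVA mast cell or basophil nuclei had an Il1rl1 UMI.

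Il1rap (ENSMUSG00000022514, chromosome 16, 26581704 to 26730117, plus strand), the chain that ST2 needs to signal, had another pattern. It was highest in myofibroblasts or smooth muscle, with 189 CPM (114 to 295) from 19 UMIs and 112 CPM (65.3 to 180) from 17 UMIs. AT2-gated nuclei had 37.7 and 56.7 CPM, macrophages 33.7 and 73.8, and fibroblasts 35.3 and 34.3. ILC2-gated nuclei had 5 UMIs in the PBS library, or 14.8 CPM (4.79 to 34.4), and 27 in the OVA library, or 35.8 CPM (23.6 to 52.1), and were below all other gated nuclei in the PBS library (log2 -1.34, -2.99 to -0.09) but not beyond counting error in the OVA library (-0.38, -1.01 to 0.19). Myofibroblasts or smooth muscle exceeded the next type by 2.33 (1.44 to 3.17, over AT2) in the PBS library, whereas in the OVA library they did not differ from macrophages beyond counting error (0.60, -0.23 to 1.35). Nuclei without a type held 123 and 292 further UMIs. An antisense gene, Gm20319, overlaps Il1rap.

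Il18r1 (ENSMUSG00000026070, chromosome 1, 40465552 to 40500854, plus strand) was shared by ILC2s and alveolar epithelium. AT1-gated nuclei had 104 UMIs, or 240 CPM (196 to 291), and 169 UMIs, or 241 CPM (206 to 280). ILC2-gated nuclei had 52 UMIs, or 154 CPM (115 to 201), and 164 UMIs, or 218 CPM (186 to 254). AT2-gated nuclei followed with 96.9 CPM (77.9 to 119) and 71.9 CPM (55.6 to 91.5), whereas macrophages had 3 and 4 UMIs and fibroblasts 3 and 3. AT1 exceeded ILC2 in the PBS library by 0.64 on the log2 scale (0.15 to 1.15), whereas in the OVA library AT1 and ILC2 did not differ beyond counting error (0.15, -0.17 to 0.47). Among the types with too few nuclei to rank, ciliated cells had 150 and 236 CPM and mast cells or basophils 92.4 and 242 CPM. After thinning, 13.6% of PBS and 14.8% of OVA AT1-gated nuclei had an Il18r1 UMI, and 27.8% and 39.2% did without thinning. Of macrophages, thinned alike, 0 of 281 had one in the PBS library, which allows a share of nuclei with a UMI of up to 1.07%, and 3 of 564 in the OVA library. Median depths were 1125 and 1996 UMIs in AT1-gated nuclei.

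The partner chain Il18rap was scarce in the epithelium, with 3 and 4 UMIs in AT1-gated and 2 and 6 in AT2-gated nuclei. It had 29 and 103 UMIs in ILC2-gated nuclei, or 85.6 and 137 CPM, and 8 and 44 UMIs in macrophages, or 12.2 and 28.5 CPM. Mast cells or basophils, too few to rank, had 6 and 25 UMIs of Il18rap, or 139 and 189 CPM. ILC2-gated nuclei did not differ from them beyond counting error (log2 -0.70, -1.99 to 0.86, and -0.47, -1.11 to 0.23). After thinning, 1 of 154 PBS and 0 of 250 OVA AT1-gated nuclei had an Il18rap UMI, and that 0 allows a share of up to 1.20%. Without thinning the shares were 1.44% and 1.40%. Il18bp, which encodes the secreted inhibitor of IL-18, had 7 and 17 UMIs in all kept nuclei.

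Il17rb (ENSMUSG00000015966, minus strand of chromosome 14, 29996135 to 30008896) was nearly limited to ILC2-gated nuclei, which gave 94.9% and 95.05% of its UMIs in gated nuclei. It had 75 UMIs there, or 221 CPM (174 to 278), and 211 UMIs, or 280 CPM (244 to 320). Each of the other 6 types had at most 8 UMIs. Il17ra, the shared chain that Il17rb pairs with, was broad instead, at 62.0 and 49.1 CPM in ILC2-gated nuclei, 70.4 and 81.6 in macrophages and 61.8 and 102 in fibroblasts. Il25, the ligand of Il17rb, had 0 UMIs in PBS nuclei and 1 in OVA nuclei.

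Il7r (ENSMUSG00000003882, minus strand of chromosome 15, 9505788 to 9530176) had 301 UMIs in ILC2-gated nuclei, or 888 CPM (791 to 995), and 726 UMIs, or 963 CPM (895 to 1036). Macrophages came next with 30.6 and 24.6 CPM, so ILC2 exceeded the next type by 4.86 (4.21 to 5.59) and 5.29 (4.82 to 5.80) on the log2 scale. Mast cells or basophils had 208 and 196 CPM. Crlf2, which pairs with Il7r in the receptor for TSLP, had 3 and 12 UMIs in ILC2-gated nuclei. Tslp itself was found in fibroblasts, at 23.5 and 26.4 CPM, and in pericytes, at 36.9 and 41.3 CPM, types that did not differ from each other beyond counting error.

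Il2ra (ENSMUSG00000026770, chromosome 2, 11642807 to 11693193, plus strand), the CD25 gene, had 164 UMIs in ILC2-gated nuclei, or 484 CPM (413 to 564), and 490 UMIs, or 650 CPM (594 to 710). No other type had more than 9 UMIs, and ILC2-gated nuclei gave 94.8% and 96.3% of its UMIs in gated nuclei. Il9r (ENSMUSG00000020279, minus strand of chromosome 11, 32187541 to 32200279) had 18 UMIs, or 53.1 CPM (31.5 to 84.0), and 48 UMIs, or 63.7 CPM (47.0 to 84.4), and at most 2 UMIs in any other of the 7 types. Of their partner chains, the common gamma chain gene Il2rg had 100 and 158 CPM and Il2rb 47.2 and 109 CPM in ILC2-gated nuclei. Both were highest there among the 7 types. Mast cells or basophils had 0 and 18 UMIs of Il2rg and 2 and 6 of Il9r. ILC2-gated nuclei did not differ from them beyond counting error for Il2rg in the OVA library (log2 0.22, -0.51 to 1.02). The same held for Il9r in both libraries (0.20, -1.86 to 3.35, and 0.49, -0.74 to 2.01). The cytokines were scarce, with 3 and 7 UMIs of Il2 in ILC2-gated nuclei and 0 and 1 UMI of Il9 in all kept nuclei.

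Across the 7 types, 5 of the 7 receptor genes (Il1rl1, Il17rb, Il7r, Il2ra and Il9r) were highest in ILC2-gated nuclei in both libraries. Il9r had fewer than 30 UMIs in gated PBS nuclei, and among the 6 receptor genes with at least 30 in each library 4 were highest in ILC2, compared with 7.37% of 9446 genes. The same 4, Il1rl1, Il17rb, Il7r and Il2ra, were at least 4-fold higher in ILC2-gated than in all other gated nuclei in both libraries, compared with 2.91% of those genes. The receptor genes were chosen as those of ILC2s, and the sort used ST2, so both counts are a description. Il18r1 was 2.69-fold and 4.78-fold higher, with AT1 as a further high type, and Il1rap was lower in ILC2 than in the other nuclei beyond counting error in the PBS library only.

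At the level of single nuclei the receptor genes were found in different shares of ILC2s. Each ILC2-gated nucleus was thinned to 500 UMIs of nuclear genes, which kept 160 PBS and 433 OVA nuclei and left out 178 and 78 shallower ones. Il1rl1 was found in 51.2% (43.2 to 59.2, Clopper-Pearson) and 45.5% (40.7 to 50.3) of them. Il7r was found in 45.6% and 44.1%, and Il2ra in 26.2% (19.6 to 33.8) and 31.6% (27.3 to 36.2). For Il17rb the shares were 17.5% and 15.01%, for Il18r1 11.2% and 12.5%, for Il9r 5.00% and 4.62%, and for Il1rap 1.25% and 1.85%. For all 7 genes the intervals of the 2 libraries overlapped. In macrophages, thinned alike, the shares were 1.42% and 1.06% for Il1rl1, 2.49% and 1.596% for Il7r, and 0 of 281 and 0 of 564 nuclei for Il2ra, which allows up to 1.07% and 0.532%. Without thinning the ILC2 shares were 48.5% and 60.7% for Il1rl1, 51.2% and 63.0% for Il7r, and 26.6% and 45.2% for Il2ra, at median depths of 852 and 1264 UMIs.

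Receptor genes were also counted together within thinned ILC2-gated nuclei. None of the 7 was found in 18.8% of PBS and 14.3% of OVA nuclei, exactly 1 in 30% and 35.8%, and 2 in 29.4% and 33.3%. At least 3 were found in 21.9% (15.7 to 29.1) and 16.6% (13.2 to 20.5), intervals that overlap. Both chains of a receptor were seldom caught in the same nucleus. The partner chains alone were found in few nuclei, which limits these counts. Il1rap was found in 2 PBS and 8 OVA nuclei, Il18rap in 10 and 30, and Il17ra in 10 and 14. Il2rg was found in 12 and 28, Il2rb in 8 and 28, and Crlf2 in 0 and 4. Whether pairs exceeded what these shares give was not tested. Il1rl1 with Il1rap was found in 1 PBS and 5 OVA nuclei, Il18r1 with Il18rap in 3 and 2, Il17rb with Il17ra in 2 and 1, and Il7r with Il2rg in 8 and 11. Il2ra was found with Il2rb in 3 and 12 nuclei and with Il2rg in 7 and 7, and Il9r with Il2rg in 1 and 2. Il7r with Crlf2 was found in 2 OVA nuclei. In the PBS library this pair was found in 0 of 160 nuclei, which allows a share of up to 1.88%, as Crlf2 itself was found in 0 of them.

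**Figure D2:**
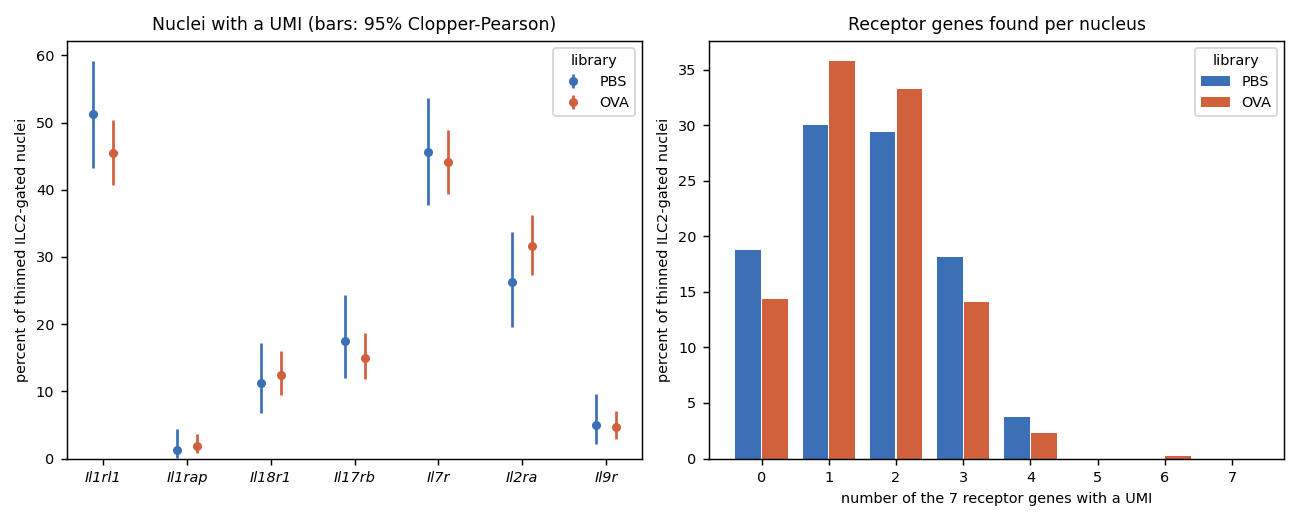
Left, percent of ILC2-gated nuclei, thinned to 500 UMIs, with a UMI of each receptor gene in the PBS (blue) and OVA (orange) libraries, with 95% Clopper-Pearson intervals. Right, percent of these nuclei by the number of the 7 receptor genes found in them, without error bars. Il1rl1 and Il7r were found in 44.1% to 51.2% of nuclei and Il1rap in 1.25% and 1.85%, and most nuclei had 1 or 2 of the genes.

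Chromatin around the receptor genes was compared between ILC2-gated and all other gated nuclei, both libraries pooled. Within 100 kb of the start, ILC2-gated nuclei were more open around Il7r by 2.68 on the log2 scale (2.57 to 2.79), around Il18r1 by 2.25 (2.17 to 2.33), around Il1rl1 by 1.75 (1.68 to 1.83) and around Il2ra by 1.18 (1.11 to 1.26). The differences were smaller around Il17rb (0.69, 0.61 to 0.77) and Il9r (0.53, 0.46 to 0.60). Around Il1rap ILC2-gated nuclei were slightly less open (-0.25, -0.43 to -0.07). Near the starts the picture changed for Il2ra, whose difference was 4.61 (4.40 to 4.83) within 20 kb. Il1rl1 and Il18r1 lie side by side with starts 35982 bp apart, and they share 30 regions, which are 88.2% of the Il1rl1 window and 90.9% of the Il18r1 window, so these values are not separate.

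Of the 109 shared regions within 100 kb of the 7 receptor starts, 55 had enough counts to be compared, and 31 were at least 4-fold more open in ILC2-gated nuclei in both libraries. Of all regions compared 16.5% were. By gene these were 9 of 9 around Il7r, 12 of 17 around Il1rl1, 12 of 17 around Il18r1, 4 of 8 around Il2ra, 3 of 7 around Il17rb, 3 of 12 around Il9r and 0 of 1 around Il1rap.

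**Figure D3:**
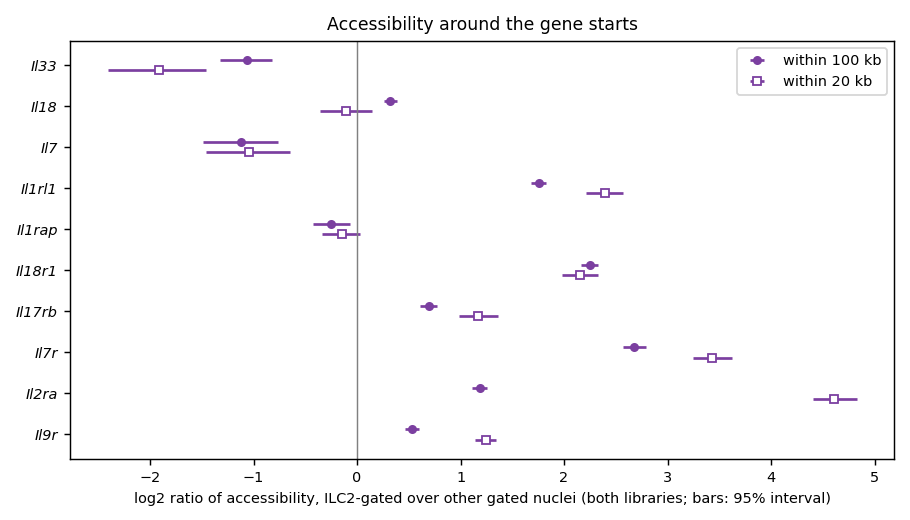
Log2 ratio of accessibility in ILC2-gated over all other gated nuclei (x axis, both libraries pooled) in shared regions within 100 kb (filled circles) and 20 kb (open squares) of the start of each gene, with 95% intervals. Il7r (2.68 and 3.43) and Il2ra (1.18 and 4.61) lay far to the right, Il1rap near 0 (-0.25 and -0.15), and Il33 (-1.07 and -1.91) and Il7 (-1.12 and -1.04) to the left. Mast cells or basophils are among the other nuclei and are not drawn apart.

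The receptor genes differed in where their ILC2 regions lay. At Il2ra they lay at the start and within the gene. The region over the start (chr2:11642051-11643173) had 84 and 142 counts, or 34.5 and 37.5 per 1000000, in ILC2-gated nuclei and 0.115 and 0.755 in the others, and no other of the 7 types had a count there among PBS nuclei or more than 0.981 among OVA nuclei. A region in an intron 8811 bp after the start (chr2:11651096-11652140) had 19.7 and 39.6 against 0.864 and 0.533. The Il9r start (chr11:32199884-32200817) had 41.5 and 45.4 against 2.36 and 1.47, with mast cells or basophils at 26.6 and 14.96. The Il7r start (chr15:9529436-9530338) had 17.3 and 12.9 against 2.77 and 3.20, with macrophages at 10.1 and 7.37 and mast cells or basophils at 4.43 and 17.1. More selective Il7r regions lay 45147 bp before the start (chr15:9574463-9575502, 13.2 and 16.1 against 0.346 and 0.266) and 47712 bp before it (chr15:9577077-9578017, 18.1 and 19.3 against 0.519 and 0.355).

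The promoters of these 3 genes are printed because their starts were open in ILC2-gated nuclei. That of Il2ra is chr2:11642542-11642841, plus strand, and holds none of the 6 motifs. That of Il9r is chr11:32200230-32200529, minus strand, with AGATAA (the GATA motif, in 11.2% of promoters) on each strand and a RUNX match. That of Il7r is chr15:9529827-9530126, minus strand, with CACTTGA (NKX2-1, in 2.98%), TTCNNNGAA (STAT, in 8.33%) and TGTGGT. A letter match is a description and not a bound site.
Il2ra promoter: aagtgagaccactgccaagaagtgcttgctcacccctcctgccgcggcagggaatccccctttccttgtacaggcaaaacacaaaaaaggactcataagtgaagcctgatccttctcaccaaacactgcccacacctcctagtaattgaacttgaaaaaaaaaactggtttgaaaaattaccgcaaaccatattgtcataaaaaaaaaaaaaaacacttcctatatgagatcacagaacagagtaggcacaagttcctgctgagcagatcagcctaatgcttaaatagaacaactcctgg
Il9r promoter: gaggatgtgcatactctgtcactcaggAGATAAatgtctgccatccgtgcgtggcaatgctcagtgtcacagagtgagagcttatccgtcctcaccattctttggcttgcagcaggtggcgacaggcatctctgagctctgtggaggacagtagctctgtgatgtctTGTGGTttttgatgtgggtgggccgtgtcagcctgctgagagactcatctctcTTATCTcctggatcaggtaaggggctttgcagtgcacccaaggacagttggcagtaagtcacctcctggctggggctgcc
Il7r promoter: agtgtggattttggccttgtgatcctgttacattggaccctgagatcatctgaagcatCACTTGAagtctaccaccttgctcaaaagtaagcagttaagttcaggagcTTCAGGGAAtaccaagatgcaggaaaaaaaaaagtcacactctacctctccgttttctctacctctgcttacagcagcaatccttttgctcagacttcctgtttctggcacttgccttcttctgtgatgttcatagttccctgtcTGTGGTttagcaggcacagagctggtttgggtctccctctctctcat

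At Il1rl1 neither annotated start lay in a shared region, although the first lay in a peak of the PBS library alone. The nearest one, 2117 bp before the start (chr1:40427006-40427901, intergenic), had 18.9 and 18.5 in ILC2-gated nuclei and 0.461 and 0.622 in the others, with mast cells or basophils at 8.87 and 10.7. The other leading region lay 50137 bp after the start in an intron of Il18r1 (chr1:40479293-40480122), with 22.6 and 21.4 against 0.519 and 0.8. Both Il1rl1 promoters are printed because of this contrast between a high RNA level and starts outside shared regions. They are chr1:40429320-40429619 (with AGATAA) and chr1:40439379-40439678 (with the TEAD letters GGAATG, the GATA letters on the other strand and a RUNX match), both on the plus strand.
Il1rl1 promoter at the first start: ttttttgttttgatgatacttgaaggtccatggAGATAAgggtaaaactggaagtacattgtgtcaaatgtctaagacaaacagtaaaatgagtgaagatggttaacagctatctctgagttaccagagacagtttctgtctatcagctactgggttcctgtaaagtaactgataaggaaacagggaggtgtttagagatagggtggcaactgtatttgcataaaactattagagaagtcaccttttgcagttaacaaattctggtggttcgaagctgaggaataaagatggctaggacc
Il1rl1 promoter at the later start: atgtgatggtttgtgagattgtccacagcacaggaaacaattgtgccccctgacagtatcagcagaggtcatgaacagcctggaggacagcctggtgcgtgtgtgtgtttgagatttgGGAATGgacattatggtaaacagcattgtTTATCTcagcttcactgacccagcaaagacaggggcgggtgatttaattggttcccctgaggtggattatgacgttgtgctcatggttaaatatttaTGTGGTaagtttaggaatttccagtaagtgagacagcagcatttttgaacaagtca

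At Il18r1 some regions were more open in epithelium and others in ILC2-gated nuclei, and part of them were open in both. The region over the start (chr1:40465232-40466146), which also overlaps the last part of Il1rl1, had 18.2 and 23.7 in AT1-gated and 20.1 and 24.3 in AT2-gated nuclei against 12.7 and 6.86 in ILC2-gated nuclei. AT1 and AT2 together exceeded ILC2 there by 0.63 (0.05 to 1.25) and 1.81 (1.17 to 2.50) on the log2 scale. A region 36146 bp after the start (chr1:40501067-40502330, chosen after its values were seen) had 29.4 and 30 in AT2-gated, 14.6 and 10.8 in AT1-gated and 11.5 and 17.7 in ILC2-gated nuclei. The intronic region named above had 0 counts in AT1-gated and AT2-gated nuclei of both libraries and 22.6 and 21.4 per 1000000 in ILC2-gated nuclei. The promoter at the third annotated start is printed as part of the region that was open in epithelium (chr1:40465756-40466055, plus strand). Its capitals are a pair of TTCNNNGAA matches.
Il18r1 promoter: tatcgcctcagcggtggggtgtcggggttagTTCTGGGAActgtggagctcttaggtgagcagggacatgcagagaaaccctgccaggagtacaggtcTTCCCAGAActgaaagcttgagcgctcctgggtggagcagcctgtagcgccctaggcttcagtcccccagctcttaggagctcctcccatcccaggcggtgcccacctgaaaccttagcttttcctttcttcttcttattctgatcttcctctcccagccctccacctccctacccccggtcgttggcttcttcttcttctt

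At Il17rb and Il1rap the starts did not set ILC2s apart. The Il17rb start (chr14:30008319-30009423) had 23.4 and 20.8 in ILC2-gated nuclei and 22.1 and 18.9 in the others, and was highest in AT2 in the PBS library (43.3) and AT1 in the OVA library (58.1). This region also overlaps an exon of Chdh, and the promoter within it, not printed, holds TGANTCA (AP-1, in 7.79% of promoters). ILC2 regions in this window lay in introns of Cacna1d, 84101 bp before the start (chr14:30092146-30093849, 28.8 and 34.6 against 1.21 and 1.87) and 86004 bp before it (chr14:30094498-30095303, 31.6 and 33.5 against 0.576 and 1.24). Mast cells or basophils had 13.3 and 19.2 at the nearer of these regions and 4.43 and 10.7 at the farther. The Il1rap start (chr16:26581212-26582095) had 45.6 and 40.6 in ILC2-gated nuclei and 43.9 and 44.0 in the others, and was open in all 7 types.

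**Figure D4:**
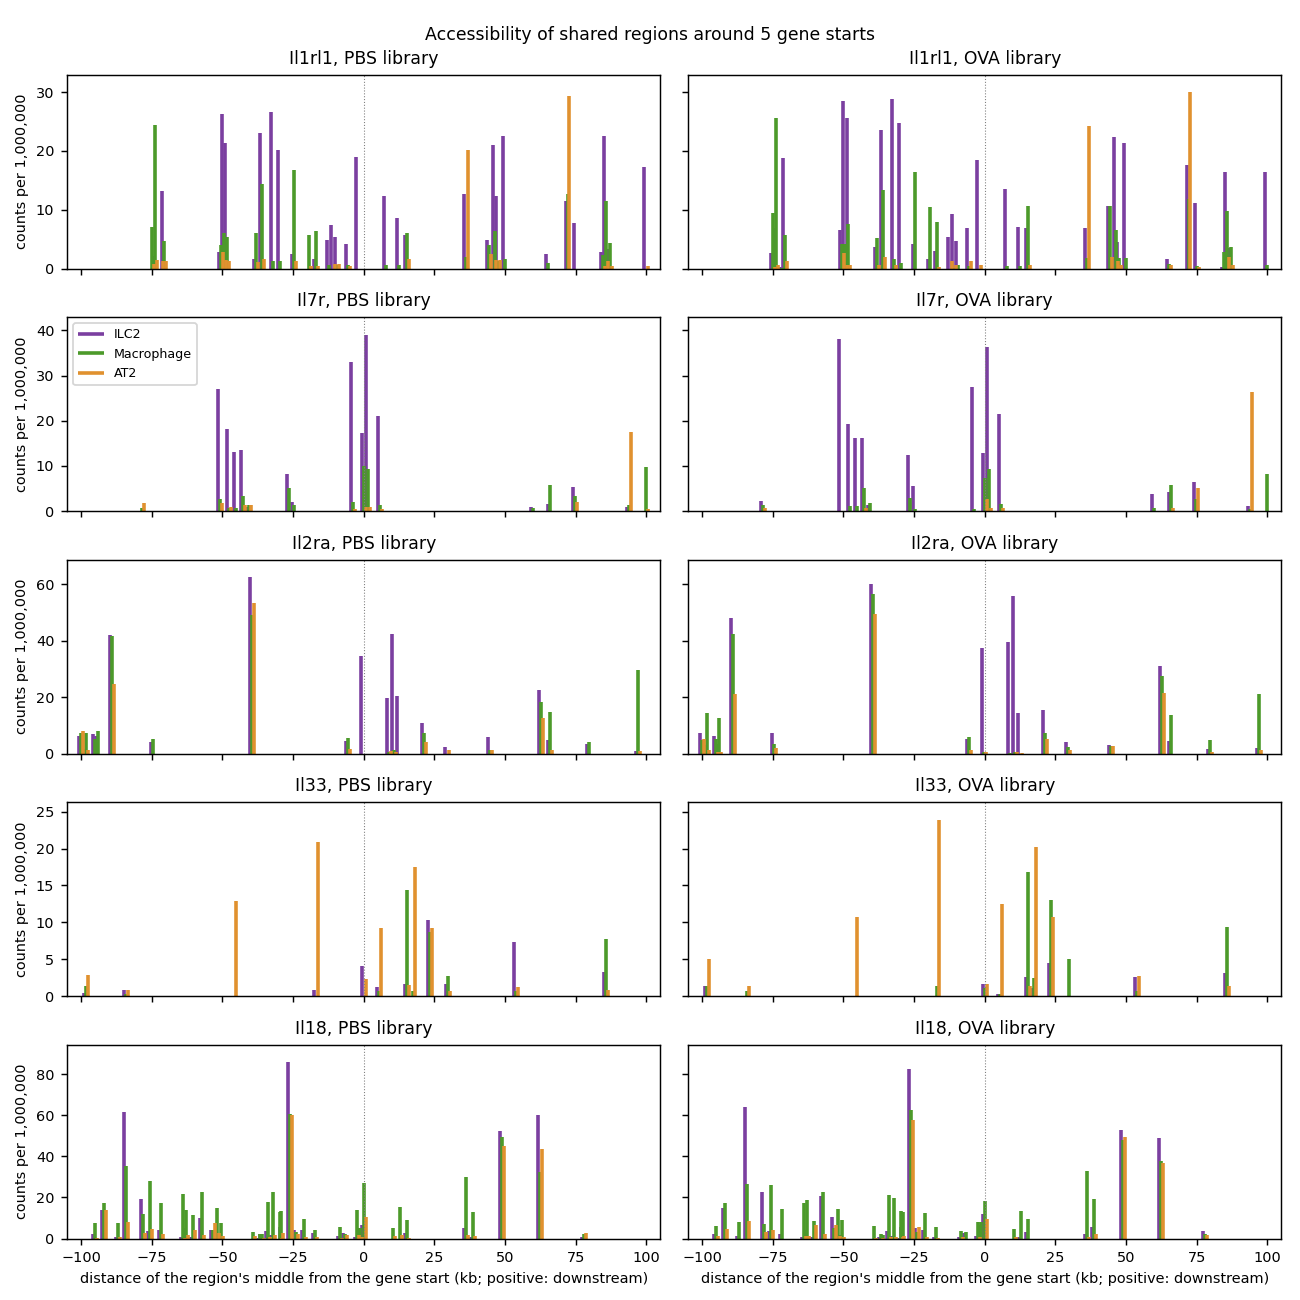
Accessibility of each shared region (counts per 1000000, y axis) against the distance of its middle from the gene start (kb, x axis) around Il1rl1, Il7r, Il2ra, Il33 and Il18 in ILC2-gated (purple), macrophage (green) and AT2-gated (orange) nuclei of the PBS (left) and OVA (right) libraries. Lines of the 3 types are drawn side by side. The Il2ra start showed ILC2 lines alone at this scale (34.5 and 37.5), and the upstream Il33 regions showed AT2 lines (20.9 and 23.9 at the nearer one).

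The comparison of the OVA with the PBS library asks whether these genes differed in lungs of fetuses of asthmatic mothers. It compares 2 libraries, and no test of the treatment was possible. Because the mitochondrial share differed, log2 ratios of CPM in ILC2-gated, macrophage and AT2-gated nuclei are also given without mitochondrial UMIs and relative to the median gene of the type. That median was 0.43 in ILC2-gated nuclei, 0.41 in macrophages and 0.39 in AT2-gated nuclei, and 0.19, 0.20 and 0.12 without mitochondrial UMIs. Mitochondrial genes took 41.0% and 30.1% of UMIs in ILC2-gated nuclei, 48.0% and 40.0% in macrophages and 36.5% and 23.1% in AT2-gated nuclei, and their part in the ratios beyond this rescaling was not tested.

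In ILC2-gated nuclei none of the 5 receptor genes with at least 100 UMIs passed a 2-fold difference, compared with 11.3% of 1402 genes that were higher by this much in OVA nuclei and 0.143% that were lower. Intervals lay above equality for 2 of the 5, Il18r1 (0.50, 0.05 to 0.98) and Il2ra (0.43, 0.17 to 0.69), compared with 45.9% of all genes. Their median was 0.34, against 0.43 over all genes. Without mitochondrial UMIs the ratios were 0.26 (-0.20 to 0.74) and 0.18 (-0.08 to 0.45), and relative to the median gene they were 0.07 and -0.01. Il1rl1 had a ratio of 0.16 (-0.04 to 0.36), which lay just above equality with a gate of 2 markers (0.22, 0.03 to 0.42), with clusters (0.23, 0.03 to 0.43) and with doublet calls kept (0.24, 0.05 to 0.42). It was -0.09 without mitochondrial UMIs and -0.27 (-0.47 to -0.07) relative to the median gene. For Il7r these values were 0.12 (-0.08 to 0.32), -0.13 and -0.31 (-0.51 to -0.12), so both genes lay below the median gene beyond counting error. Il17rb was at 0.34 (-0.05 to 0.74), and at 0.09 and -0.09 on these other scales. Il9r was at 0.26 (-0.55 to 1.13), 0.02 and -0.17. Il1rap, from 5 and 27 UMIs, was at 1.28 (-0.12 to 3.01), 1.04 and 0.85.

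Among the ligands, Il18 in macrophages was at 49.0 CPM in the PBS and 90.7 CPM in the OVA library, a log2 ratio of 0.89 (0.33 to 1.49). It was 0.68 (0.12 to 1.29) without mitochondrial UMIs and 0.48 (-0.08 to 1.084) relative to the median gene. The cluster with the largest share of macrophage-gated nuclei differed between the libraries. Cluster 1 held 41.7% of PBS and 9.14% of OVA ones, and cluster 2 held 34.0% and 72.6%. Within cluster 2 the ratio, computed after the data were seen, was 1.31 (0.42 to 2.35, from 11 and 121 UMIs), and within cluster 1 it was 0.17 (-1.53 to 1.70, from 12 and 6 UMIs). Over the same contrast the region at the Il18 start was less open in OVA macrophages (27.2 and 18.2, log2 -0.58, -1.01 to -0.14), while the whole window did not differ beyond counting error (-0.03, -0.11 to 0.06). Il33 in AT2-gated nuclei was at 0.58 (-0.19 to 1.38), an interval that includes equality, at 0.31 without mitochondrial UMIs and at 0.19 relative to the median gene. With doublet calls kept it was 0.98 (0.26 to 1.73). Il7 had too few UMIs for a ratio.

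Il1rap in macrophages was at 33.7 CPM in the PBS and 73.8 CPM in the OVA library, a log2 ratio of 1.13 (0.47 to 1.86), 0.93 (0.26 to 1.66) without mitochondrial UMIs and 0.73 relative to the median gene. Within the same clusters 1 and 2 it was 1.66 (-0.22 to 3.66, from 5 and 7 UMIs) and 0.49 (-0.31 to 1.38, from 15 and 93 UMIs), and both intervals include equality. In cluster 11 the ratio was 3.08 (0.30 to 8.51, from 1 and 11 UMIs), an interval above equality. In cluster 14 it was 0.45 (-3.19 to 6.165, from 1 and 3 UMIs). In fibroblasts, with 48 and 100 UMIs of the gene, the ratio was -0.04 (-0.55 to 0.49), and in myofibroblasts or smooth muscle -0.75 (-1.79 to 0.27). The difference between types was not tested. In all, 27 pairs of a gene and a type had at least 10 UMIs, over 9 of the 10 genes, and 4 had an interval above equality: Il18 and Il1rap in macrophages, and Il18r1 and Il2ra in ILC2-gated nuclei. None lay below it and 23 included it. Without mitochondrial UMIs the macrophage pairs stayed above equality and 2 pairs lay below it, Il18 in fibroblasts (-1.97, -3.93 to -0.18, from 8 and 5 UMIs) and Il18r1 in AT2-gated nuclei (-0.71, -1.19 to -0.23).

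**Figure D5:**
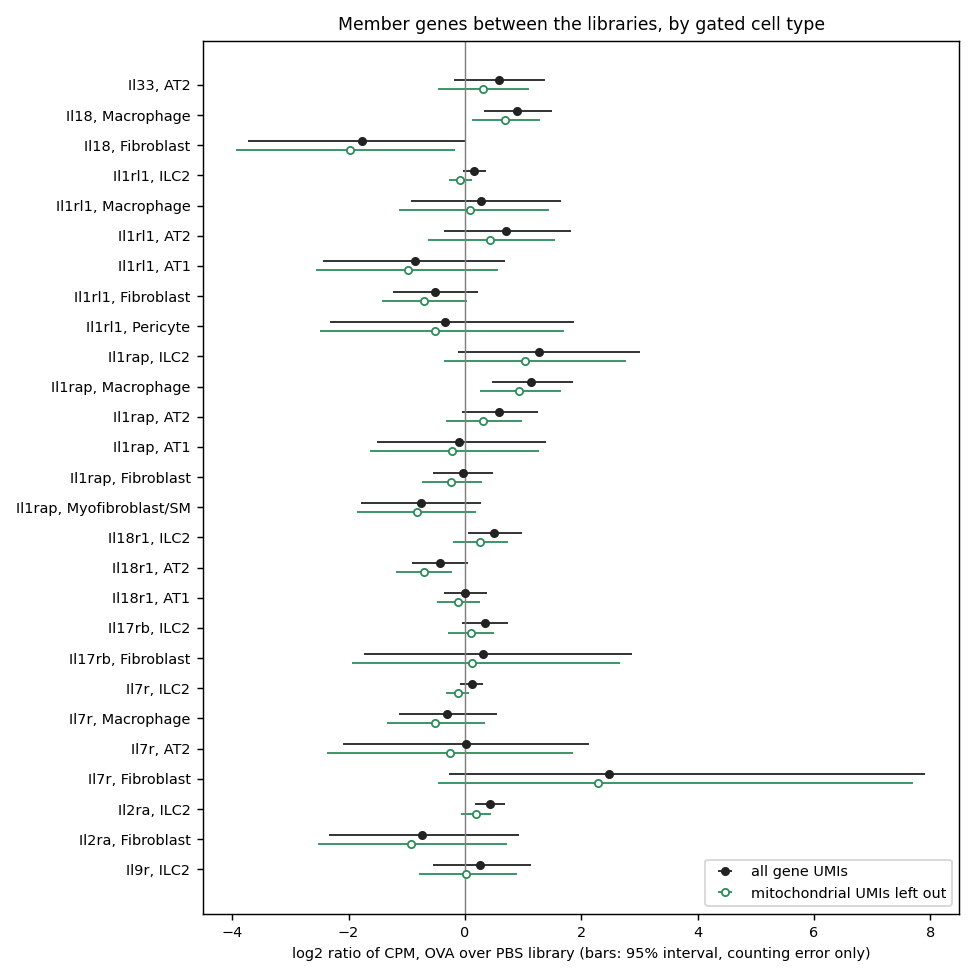
Log2 ratio of CPM in the OVA over the PBS library (x axis) for the 27 pairs of a gene and a cell type with at least 10 UMIs, over all gene UMIs (filled) and with mitochondrial UMIs left out (open), with 95% intervals for counting error. Il18 and Il1rap in macrophages lay right of 0 on both scales (0.89 and 0.68, 1.13 and 0.93), and in ILC2-gated nuclei the intervals of Il1rl1 (0.16), Il7r (0.12), Il17rb (0.34), Il9r (0.26) and Il1rap (1.28) included 0.

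Accessibility around the receptor genes in ILC2-gated nuclei differed little between the libraries. Of the 109 regions 36 had enough counts, with a median log2 ratio of 0.09 against -0.01 over all regions. Of these 36 regions 1 was at least 2-fold more open in the OVA library and 0 were at least 2-fold less open, compared with 0.678% and 0.201% of all 15921 regions. It was the Il2ra intron region named above, with 48 PBS and 150 OVA counts, or 19.7 and 39.6 per 1000000 (log2 1.00, 0.53 to 1.51). The Il2ra start in the same nuclei was at 34.5 and 37.5 (0.12, -0.28 to 0.53). The Il2ra window as a whole was at 0.21 (0.08 to 0.35). The windows of Il9r (0.16, 0.03 to 0.29) and Il1rl1 (0.13, 0.007 to 0.25) also lay above equality, and those of Il1rap, Il18r1, Il17rb and Il7r included it. The Il18r1 start was lower in the OVA library (12.7 and 6.86, -0.89, -1.70 to -0.09) from 31 and 26 counts.

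The other genes of these pathways were taken from 5 lists with 88 genes, of which Il36a was not among the features. Of the 19 other receptor chains 11 had enough UMIs to compare types, and 3 were at least 4-fold higher in ILC2-gated nuclei, compared with 2.91% of the 9446 genes: Il18rap, Il2rg and Tnfrsf18, the GITR gene, which had 216 and 171 CPM there against 1.83 and 0.712 in the other gated nuclei. Of the 18 other ligands 3 could be compared and 0 were 4-fold higher. In the list of IL-1 and IL-17 receptor signalling 3 of 21 were, Nfkb1, Nfkbia and the feedback inhibitor gene Tnfaip3, the last by 4.71 (4.43 to 5.00) and 4.29 (4.13 to 4.45) on the log2 scale. In that of common gamma chain signalling the kinase gene Jak2 was (1 of 14), and in that of alarmin processing the protease gene Furin (1 of 6), with 351 and 693 CPM.

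Between the libraries, 2 of the 9 signalling genes with at least 100 UMIs in ILC2-gated nuclei passed 2-fold with the OVA library higher, and 0 passed it lower, compared with 11.3% and 0.143% of the 1402 genes. They were the NF-kappaB subunit genes Nfkb1, with 1022 and 5277 UMIs (1.22, 1.12 to 1.31), and Rel, with 39 and 216 UMIs (1.32, 0.82 to 1.85). Without mitochondrial UMIs they were at 0.97 and 1.07, and relative to the median gene at 0.78 and 0.88. Of the 3 other receptor chains, 5 common gamma chain signalling genes and 1 processing gene compared, 0 were 2-fold higher or lower. Il2rb, which had 16 and 82 UMIs and so fell under the limit of 100, was at 1.20 (0.42 to 2.08) and at 0.96 (0.18 to 1.83) without mitochondrial UMIs, and at 0.77 relative to the median gene.

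The genes whose levels were most like those of 4 of the 10 genes were named by Pearson correlation of log2(CPM + 10) over 14 points, 7 types in each of the libraries, among 9152 genes. Points of a library share its depth and RNA background, so these values are a description. For Il33 they were Spink5 (0.98), Lyz1 (0.98) and Hc (0.97). For Il18 they were Nrg4, Ms4a8a and F7 (0.99, 0.99 and 0.98). For Il1rl1 they were Gata3 and Icos, both of which are gate markers, and Ptprcap (0.99, 0.98 and 0.98), and for Il7r they were Lif, Ptpn22 and Emb (0.99, 0.99 and 0.98).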

How the data were processed

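RNA and chromatin of single nuclei were measured with the 10x Multiome assay in 1 PBS and 1 OVA library. The authors aligned the reads to mm10 with Cell Ranger ARC 2.0.1, called peaks per library and deposited raw whole-number counts, namely UMIs per gene and transposition counts per peak. The 10 genes and all gene lists were chosen with earlier results of these data known.

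Barcodes under 200 genes or over 60% mitochondrial UMIs were left out. Doublets were called from simulated doublets (2 per nucleus, expected rate 0.8% per 1000 barcodes). A nucleus was given the type of which at least 3 markers were detected, with a lead of 2 over any other type, from 242 markers of 22 types, and Leiden clusters served as an alternative. UMIs were summed per type and library. With 1 library per group there was no test, and no p-value is given. CPM have exact Poisson intervals, ratios exact conditional binomial intervals and shares Clopper-Pearson intervals, all at 95%, and all cover counting error alone. A 0 was read against 3 counts. The other gated nuclei are those of all 22 types but the one named. The ratio code was tested on simulated counts.

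Genes with at least 30 UMIs over the gated nuclei of each library entered comparisons of types, and those with 100 or more in ILC2-gated nuclei of the libraries together entered comparisons of libraries. Pairs of a member and a type needed 10 UMIs. A difference past 2-fold also had to have an interval that left out equality. Shared regions were the unions of overlapping PBS and OVA peaks, 101838 in all, which held 75.9% of PBS and 85.0% of OVA peaks. They were assigned to a gene within 100 kb of its start. For each gene the region nearest to its start was named, with up to 2 regions of at least 50 counts that had the highest ratio of ILC2-gated nuclei (ligands: the type with the most RNA) over the other nuclei. Other genes named were partner chains and ligands of the 10 genes, those past 2-fold or 4-fold in the pathway lists, and the 3 genes most correlated with Il33, Il18, Il1rl1 and Il7r among genes with at least 100 UMIs. The same was planned for Il7, which had too few UMIs. Counting was not stated to use strand, so genes that overlap others cannot be fully separated. Promoters came from RefSeq (GRCm38.p6), in which 9 of the 10 genes matched. Gene spans, strands, overlapping genes and exon or intron labels came from the GENCODE mouse annotation. Start sites came from the deposited feature table, and distances were measured from them. For Il7r (9529835) and Il9r (32200236) these starts lie inside the printed span and not at its end. Alternatives were another gate, clusters, kept doublets, a joint RNA and chromatin filter, other denominators and count minimums, a 20 kb window and, chosen after the data were seen, single macrophage clusters. Python 3.11.15, numpy 2.4.6, scipy 1.17.1, pandas 2.3.3, scikit-learn 1.9.0, scanpy 1.11.5, leidenalg 0.10.2 and matplotlib 3.10.9 were used.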

Additional observations from a re-analysis of the deposited data

How the results depend on the processing

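Of 167 alternative values, 124 moved by less than their counting error and 39 by more, and in 4 a difference whose interval left out equality turned over. In 19 the sign was opposite to that of the main value, 2 of them among these 4. Relative to the median gene, the OVA over PBS log2 ratio in ILC2-gated nuclei turned negative for Il2ra (-0.00588), Il1rl1 (-0.27), Il7r (-0.31), Il17rb (-0.0927) and Il9r (-0.17). With mitochondrial UMIs left out it turned negative for Il1rl1 (-0.0854) and Il7r (-0.13), and as a mean of single nuclei for Il7r (-0.02), Il9r (-0.12) and, in AT2-gated nuclei, Il33 (-0.05). For Il18r1 in AT1-gated nuclei, at 0.01, 5 alternatives were negative, all with intervals that include equality. With a joint filter on RNA and chromatin counts the Il7r ratio in ILC2-gated nuclei was 0.36. Il1rap in clusters of myofibroblasts or smooth muscle turned positive, at 0.33 (-0.15 to 0.81). By macrophage cluster, an alternative chosen after the data were seen, Il18 was at 0.17 in cluster 1 and 0.0340 in cluster 11, and Il1rap at 3.08 in cluster 11 (from 1 and 11 UMIs). The lead of the highest type for Il18 depended on whether monocytes were numerous enough to rank. With a gate of 2 markers and a lead of 1, and with clusters, the highest type in the PBS library was the monocyte over the macrophage (0.42 and 0.34, where the macrophage had led), and the lead in the OVA library was 0.55 and 0.65. With doublet calls kept it was 3.25 in the OVA library. For Il33 in the OVA library the lead was 1.95 in clusters. With the gate of 2 markers 4 of the 7 receptor genes were highest in ILC2-gated nuclei, Il1rl1 being highest in mast cells or basophils, and under the other alternatives 5 were.

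Genes at least 2-fold higher in OVA ILC2-gated nuclei numbered 355 with a minimum of 30 UMIs and 82 without mitochondrial UMIs, against 158, and those lower numbered 48 and 9, against 2. Within 20 kb, accessibility of ILC2-gated over other nuclei was -1.91 near Il33, -0.10 near Il18, which turned negative, 2.39 near Il1rl1, 2.16 near Il18r1, 1.17 near Il17rb, 3.43 near Il7r, 4.61 near Il2ra and 1.24 near Il9r. With the gate of 2 markers it was 0.16 near Il18, 1.60 near Il1rl1, 2.02 near Il18r1 and 1.08 near Il2ra. The OVA over PBS ratio within 20 kb was 0.36 near Il18, and it turned negative near Il18r1 (-0.13) and Il7r (-0.17), with intervals that include equality. The cause of these changes was not tested. The Il33 ratio in AT2-gated nuclei left out equality with doublet calls kept (0.98), and in ILC2-gated nuclei so did those of Il1rl1 with doublet calls kept (0.24), a gate of 2 markers (0.22) and clusters (0.23), of Il17rb with doublet calls kept (0.41), a gate of 2 markers (0.39) and the joint filter (0.58), and of Il7r with doublet calls kept (0.20) and the joint filter. No paired analysis was possible because PBS and OVA were single libraries. Il7 had 2 and 9 UMIs in all kept nuclei, so no ratio was computed.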
